A study of Mus musculus with 3 samples.

Results

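The genes described here handle fatty acids and build or empty lipid droplets: Fabp4, Fabp5, Plin2, Pparg, Acsl1, Acsl4, Acsl5, Dgat1, Dgat2 and Pnpla2. They were taken by symbol from the deposited gene table, and 10 of 10 were found among its 55536 annotated mouse genes. The data are total RNA libraries, depleted of ribosomal RNA, from the cytosolic fraction of C57BL/6J bone-marrow-derived macrophages, which are primary cells grown from mouse bone marrow. The cells carried no named genetic change, and age and sex were not recorded. They had 100 ng/ml Lipid A, the part of bacterial lipopolysaccharide that activates the receptor TLR4, for 12 h, a washout of 12 h, and 100 ng/ml Lipid A again for 120 min before harvest. The labels gave 1 group of 3 biological replicates and no untreated or once-treated cells, so the values are levels within 1 state and say nothing of what Lipid A changed. The replicates share 1 donor entry and the labels name no separate animals or cultures, so the spread between them may be technical.

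Fatty acids that enter a macrophage are bound by fatty acid-binding proteins (FABPs), which carry these poorly soluble molecules through the cytosol. Long-chain acyl-CoA synthetases (ACSLs) activate them to acyl-CoA, which is burned in mitochondria, built into phospholipids or esterified to triglyceride by the DGAT enzymes. Triglyceride is stored in lipid droplets coated by perilipins and released again by the lipase ATGL, encoded by Pnpla2, while the nuclear receptor PPARγ, encoded by Pparg, binds fatty acid ligands and drives many genes of this pathway. Macrophages filled with such droplets are known as foam cells.

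Levels are in TPM, a measure of transcript abundance that corrects for transcript length and depth and allows genes to be compared. The deposited TPM were taken over all rows, and protein-coding genes held 32.5%, 26.5% and 27.1% of them in replicates 1, 2 and 3, so TPM values of different libraries carry this difference. The libraries held 29273913, 64712406 and 37602753 expected counts on genes. Macrophage markers were high: 9 of 10 reached 1 TPM in every library, Lyz2 stood at 2751 and Cd68 at 586 TPM, and the list summed to 4473 to 4725 TPM. Of the 10 adipocyte markers, 8 had a mean under 1 TPM, and Adipoq, Lep, Cfd, Retn, Plin1, Cidec and Adrb3 were at 0 in every library. Those above 1 TPM were the lipases Lpl and Lipe.

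The genes ranged from rank 18 to rank 10706 of the protein-coding genes by mean level. At least 1 TPM in every library was reached by 9 of the 10, against 39.1% of 22028 protein-coding genes. At least 10 TPM was reached by 6, against 15.3%, and at least 100 TPM by Fabp5 and Plin2, against 1.68%. The median of their mean levels was 23.7 TPM, beside 0.127 TPM for all protein-coding genes and 8.03 TPM for the 8612 protein-coding genes that reached 1 TPM in every library. Together they took 0.477% ± 0.0812 of the protein-coding TPM (SD, n = 3), and Fabp5 alone held 77.3% ± 3.54 of their sum.

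**Figure D1:**
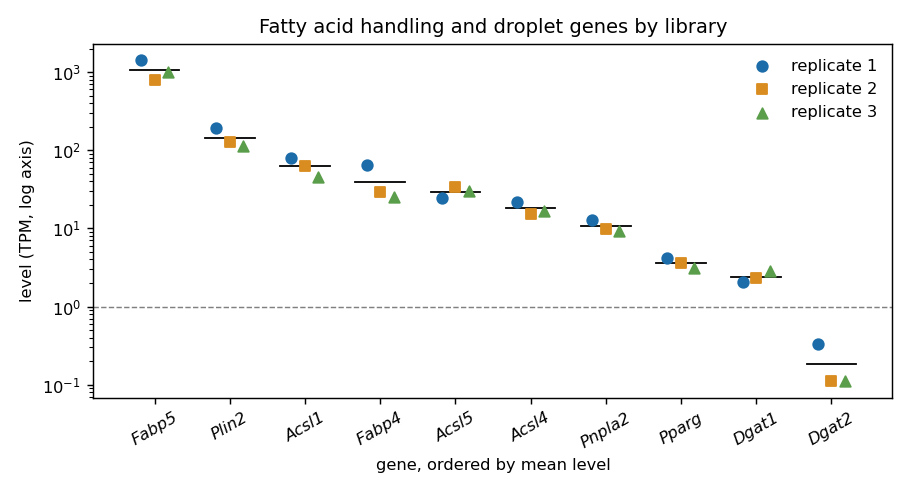
Level of each gene in TPM on a log axis, with 1 point per library, a black line at the mean of 3 libraries and a dashed line at 1 TPM. Fabp5 is highest with a mean of 1074 TPM, Plin2 is above 100 TPM in each library, and Dgat2 lies under 1 TPM.

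Fabp5, the epidermal-type FABP, was the most abundant of the 10 and among the most abundant messages of the cells. It stood at 1427, 783 and 1014 TPM in replicates 1, 2 and 3, a mean of 1074 ± 326 TPM (SD, n = 3), rank 18 of all protein-coding genes (ENSMUSG00000027533.10, mm10 chromosome 3, 10012548 to 10016607, + strand). Replicate 1 was the highest and replicate 2 the lowest. Fabp4, the adipocyte-type FABP that macrophages also make, lies near it on the same chromosome and the opposite strand (ENSMUSG00000062515.3, 10204088 to 10208576). It stood at 64.0, 28.9 and 25.2 TPM, a mean of 39.4 ± 21.4 TPM and rank 1133. Replicate 1 held more than the other two libraries, which lay close together.

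Fabp5 exceeded Fabp4 by 22.3-fold, 27.1-fold and 40.2-fold in replicates 1, 2 and 3, a log2 ratio of 4.86 ± 0.43 (SD, n = 3). Of the summed TPM of both, Fabp5 held 96.6% ± 0.941. This ratio is taken within each library and does not depend on how libraries are scaled. With 3 libraries no exact test of 1 ratio can reach 0.05, so the ratios here are given with their SD and the number of libraries that share a direction.

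The FABP genes between and beside this pair on chromosome 3 were silent or nearly so. Pmp2, a FABP of myelin, was at 0 in every library, Fabp9, a testis FABP, had a mean of 0.0133 TPM, and Fabp12 had a mean of 0.0433 TPM. Impa1, the next gene in the row and an inositol phosphatase, stood at 6.13 TPM.

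Fabp5 has near-identical copies in the genome that can draw reads from it. A search of the annotated transcripts found 5 processed pseudogenes at least 90% identical to Fabp5 over at least 200 bases, among them Gm6166 at 98.3% and Gm14328 at 97.3% identity. Together they held 8.41, 13.0 and 18.9 TPM in replicates 1, 2 and 3, and 2 of the 5 were at 0 throughout. In the second deposited quantification they held 0.438, 0.525 and 0.328 TPM. These sums are small beside the level of Fabp5, and adding them leaves the Fabp5 to Fabp4 ratio within its spread. Plin2 had 1 such copy, at 0 in every library of the gene table, and the other 8 genes had none.

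Acsl1 was the highest of the acyl-CoA synthetases, the enzymes that trap a fatty acid in the cell by joining it to coenzyme A. It stood at 80.5, 62.7 and 45.5 TPM, a mean of 62.9 ± 17.5 TPM (ENSMUSG00000018796.13, chromosome 8, 46471037 to 46536051, + strand). Acsl5, an isoform of mitochondria and the endoplasmic reticulum, stood at 24.6, 33.6 and 29.9 TPM, a mean of 29.4 ± 4.54 TPM (ENSMUSG00000024981.6, chromosome 19, 55251938 to 55297720, + strand). Acsl4, which prefers arachidonic acid and is known for its part in ferroptosis, stood at 22.1, 15.3 and 16.9 TPM, a mean of 18.1 ± 3.55 TPM (ENSMUSG00000031278.12, chromosome X, 142317993 to 142390535, − strand). Acsl1 was highest in replicate 1 and Acsl5 lowest there, so the gap between them differed by library.

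Acsl1 exceeded Acsl5 by 3.28-fold, 1.87-fold and 1.52-fold in replicates 1, 2 and 3, a log2 ratio of 1.07 ± 0.57. It exceeded Acsl4 in all 3 libraries, by a log2 ratio of 1.78 ± 0.31. Acsl4 was below Acsl5 in all 3, with a log2 ratio of -0.71 ± 0.50 that came close to 0 in replicate 1, at -0.16. Of the TPM of the family (Acsl1, Acsl3, Acsl4, Acsl5 and Acsl6), Acsl1 held 61.3%, 53.9% and 47.2%, and Acsl5 held 18.7%, 28.9% and 31.0%. Acsl3, an isoform linked to droplet growth, held 3.82% ± 0.596, and Acsl6, mainly a gene of brain, was at 0 in every library.

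Dgat1 and Dgat2 encode unrelated enzymes that both add the last fatty acid to make triglyceride, and both were low. Dgat1 stood at 2.04, 2.29 and 2.89 TPM, a mean of 2.41 ± 0.437 TPM (ENSMUSG00000022555.12, chromosome 15, 76502015 to 76511953, − strand), with only 13.9% of the detected protein-coding genes below it. Dgat2 stood at 0.33, 0.11 and 0.11 TPM (ENSMUSG00000030747.5, chromosome 7, 99153658 to 99182719, − strand), the only one of the 10 under 1 TPM. Replicate 1 stood apart for Dgat2, but few reads lay behind it.

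The Dgat2 values rest on 31, 28 and 16 expected counts, with exact Poisson 95% intervals of 21.1 to 44.0, 18.6 to 40.5 and 9.15 to 26.0 counts, which cover counting error only. Dgat1 had 155, 457 and 274 counts. Dgat1 exceeded Dgat2 by 6.18-fold, 20.8-fold and 26.3-fold, a log2 ratio of 3.91 ± 1.12, the widest spread of the 6 ratios computed.

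Plin2, the perilipin that coats droplets in most cells outside fat tissue, was the second most abundant of the 10. It stood at 192, 127 and 114 TPM, a mean of 144 ± 41.8 TPM and rank 295 (ENSMUSG00000028494.12, chromosome 4, 86648386 to 86670060, − strand). Pnpla2, whose product ATGL takes the first step of triglyceride breakdown, stood at 13.0, 9.96 and 9.27 TPM, a mean of 10.7 ± 1.98 TPM (ENSMUSG00000025509.15, chromosome 7, 141455198 to 141460743, + strand). Both were highest in replicate 1, and Plin2 exceeded Pnpla2 by 14.8-fold, 12.7-fold and 12.3-fold. This log2 ratio, 3.72 ± 0.14, was the steadiest of the 6.

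Pparg stood at 4.15, 3.60 and 3.14 TPM, a mean of 3.63 ± 0.506 TPM (ENSMUSG00000000440.12, chromosome 6, 115360951 to 115490399, + strand). That placed it above 25.3% of the protein-coding genes detected at 1 TPM. The 3 values lay close together, with no library apart from the others.

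In the order of mean levels, Fabp5, Plin2, Acsl1, Fabp4, Acsl5, Acsl4, Pnpla2, Pparg, Dgat1, Dgat2, most neighbours did not overlap across the libraries. The exceptions were Acsl1 with Fabp4 and Fabp4 with Acsl5. Fabp4 was above Acsl5 in 1 of 3 libraries only, with a log2 ratio of 0.30 ± 0.93. Pparg and Dgat1 were separated by a log2 ratio of 0.60 ± 0.45, which fell to 0.12 in replicate 3.

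Pparg and Acsl1 each have more than 1 annotated start of transcription, and the transcript tables bear on which start was used. The sequences before each start are shown because the starts differ both in base makeup and in how much RNA was assigned to them. They are the + strand of GRCm38.p6 from the RefSeq promoter table, 5′ to 3′, ending before the first GENCODE transcript start of that site. Capitals mark matches, on either strand, to 4 short motifs. The GC box was searched as GGGCGG. The CCAAT box was searched by the letters of its name. The TATA box was searched as TATAA, and the half-site of nuclear receptors was searched as AGGTCA. No 2 matches overlap in the sequences shown.
Pparg start 1 (chr6:115360894-115360950): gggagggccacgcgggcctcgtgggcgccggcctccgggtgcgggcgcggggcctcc
Pparg start 2 (chr6:115362099-115362291): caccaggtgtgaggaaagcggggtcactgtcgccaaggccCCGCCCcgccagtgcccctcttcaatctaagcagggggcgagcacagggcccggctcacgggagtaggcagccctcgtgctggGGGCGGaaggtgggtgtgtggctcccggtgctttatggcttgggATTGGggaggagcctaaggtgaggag
Pparg start 3 (chr6:115421816-115422065): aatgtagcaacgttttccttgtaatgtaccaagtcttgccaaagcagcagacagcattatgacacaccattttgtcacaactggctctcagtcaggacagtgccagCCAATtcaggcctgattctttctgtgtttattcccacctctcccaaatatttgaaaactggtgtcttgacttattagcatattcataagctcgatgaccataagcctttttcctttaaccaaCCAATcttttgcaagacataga
Acsl1 start 1 (chr8:46470787-46471036): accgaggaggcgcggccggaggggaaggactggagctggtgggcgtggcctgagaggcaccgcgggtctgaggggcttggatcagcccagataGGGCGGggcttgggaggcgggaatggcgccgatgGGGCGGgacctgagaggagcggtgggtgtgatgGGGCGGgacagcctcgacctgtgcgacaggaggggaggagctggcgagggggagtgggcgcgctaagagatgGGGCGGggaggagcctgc
Acsl1 start 2 (chr8:46490716-46490965): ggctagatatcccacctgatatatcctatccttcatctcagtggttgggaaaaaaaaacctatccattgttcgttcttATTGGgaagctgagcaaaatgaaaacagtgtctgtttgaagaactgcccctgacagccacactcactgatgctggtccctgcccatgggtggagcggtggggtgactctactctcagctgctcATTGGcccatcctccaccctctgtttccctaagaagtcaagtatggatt

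The 250 bases before the RefSeq start were 82.4%, 63.6% and 40.8% G or C at Pparg starts 1, 2 and 3, and 72% and 48.4% at Acsl1 starts 1 and 2, beside a median of 52.4% over 32851 such windows. GC boxes stood 4 times before Acsl1 start 1 and not at all before Acsl1 start 2 or Pparg start 3, and 32.7% of all windows hold at least 1. Pparg start 2 had 2, both shown. Pparg start 1 had 1, in bases after the GENCODE start that are not shown. CCAAT boxes stood in pairs before Pparg start 3 and Acsl1 start 2, and 33.8% of all windows hold 1 or more. The half-site, held by 14.0% of windows, and the TATA box, held by 22.8%, were matched at Pparg starts 1 or 2 only, in bases after the GENCODE start that are not shown. A match is a string of letters and was not tested as a binding site, and windows without one are not thereby shown to lack binding.

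Start 3 of Pparg begins Pparg-201, the transcript of the PPARγ2 isoform known from fat cells, whereas starts 1 and 2 give PPARγ1-type transcripts. Pparg-202, from start 1, stood at 1.28, 1.92 and 1.97 TPM in replicates 1, 2 and 3. Pparg-204, from start 2, stood at 1.15, 1.65 and 1.17 TPM. Its share of Pparg was not settled. It was 27.7%, 45.8% and 37.3% in replicates 1, 2 and 3 here, and 31.6%, 9.57% and 4.47% in the second quantification. With the other transcripts of start 2 included, the second quantification gave this start 40.5%, 9.57% and 18.5%. Pparg-201 stood at 1.72 TPM in replicate 1 and was listed at 0 in the other two libraries.

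The assignment to Pparg-201 in replicate 1 was loose. It made up 41.4% of Pparg there in the first transcript table, whose deposited interval for it ran from 0.427 to 2.59 TPM (its confidence level is not stated). The second transcript table gave it 15.9%, 2.73% and 0% of Pparg in replicates 1, 2 and 3. Both tables thus placed start 3 highest in replicate 1, with shares that differed between the tables.

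At Acsl1 the assignment was clear. Transcripts from start 1 held 77.8, 60.9 and 43.3 TPM, 96.3% ± 1.06 of the gene, and those from start 2 were at 0 in each library of the first table. The second table gave start 2 values of 0, 1.56 and 0.534 TPM.

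Over the 66 annotated transcripts of the 10 genes, 1 transcript held more than 50% of the TPM for 9 genes and more than 90% for 4. Fabp5-201 held 99.9% ± 0.0758 of Fabp5 and Fabp4-201 held 99.7% ± 0.290 of Fabp4. Acsl1-201 held 95.5% ± 1.97, Dgat1-201 89.6% ± 14.5, Acsl5-201 86.6% ± 9.88, Plin2-201 85.7% ± 2.03 and Acsl4-203 73.1% ± 3.10. The exception was Pparg, whose leader Pparg-202 held 49.0% ± 16.4.

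The first and second quantifications named the same leading transcript for 9 of the 10 genes and parted on Pnpla2. In the first, the protein-coding Pnpla2-203 held 62.7%, 88.1% and 71.8% of the gene. In the second it held 11.9%, 8.62% and 9.83%, and Pnpla2-201, annotated as a target of nonsense-mediated decay, led with 59.0%, 63.9% and 61.0%. Pnpla2 was also the gene whose level moved most on average between the quantifications, once both were put on a common base of coding and long noncoding genes. Its mean log2 difference was 0.33 ± 0.04, against means within 0.10 in size for the other 9. Single libraries differed more for some of these, with -0.07 ± 0.14 for Acsl5 and 0.04 ± 0.13 for Pparg. Which form of Pnpla2 prevailed is therefore not settled by these tables.

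**Figure D2:**
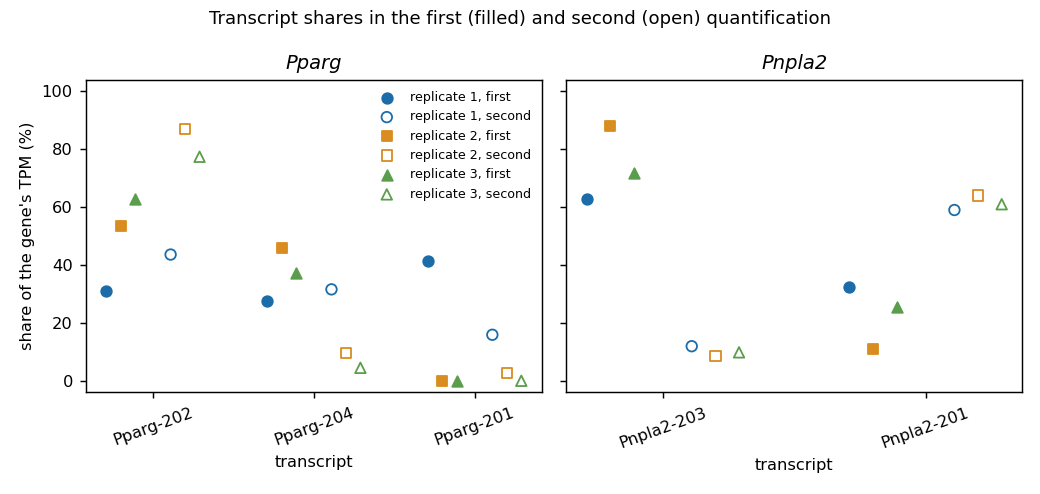
Share of the TPM of Pparg (left) and Pnpla2 (right) held by named transcripts, in percent, with 1 point per library for the first (filled) and second (open) deposited quantification. Pnpla2-203 leads in the filled points and Pnpla2-201 in the open ones, and Pparg-201 is above 10% in replicate 1 only.

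The 3 libraries were then compared for each gene against counting error, with a chi-square test of rounded expected counts that takes TMM-scaled library sizes as the expectation, adjusted by Benjamini and Hochberg over all 14568 genes tested. At an adjusted p under 0.05, 10 of the 10 genes departed between libraries, where 72.0% of all genes tested did so, or 72.4% of the 11833 protein-coding ones. Departing from counting error was thus common among genes and is no feature of these. The adjusted p was 0.00591 for Pparg, 0.00745 for Dgat1, 5.21e-04 for Dgat2 and 2.03e-10 for Pnpla2, and smaller for the other 6. Some calls were lost when 1 library was left out. Without replicate 1 these were Acsl4 (adjusted p = 0.271), Dgat1 (0.706) and Dgat2 (0.838). Pparg was lost without replicate 2 (0.164) or 3 (0.226), and Pnpla2 without replicate 3 (0.818).

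The size of the spread differed more between the genes than the calls did. On TMM-scaled CPM, counts divided by the effective library size and not by transcript length, Fabp4 stood at 69.5, 38.2 and 30.8 in replicates 1, 2 and 3, a coefficient of variation of 44.5% that exceeded that of 91.6% of the protein-coding genes tested. Dgat2 had 58.4%, at the few counts given above. Acsl1, Fabp5 and Plin2 had 23.8%, 20.7% and 19.6%, and Pparg, Acsl4 and Pnpla2 were the steadiest with 10.3%, 10.7% and 11.8%. The median over the 10 was 17.6%, beside 13.5% over the protein-coding genes tested, and over the 9 that reached 1 TPM it was 15.5%, beside 11.0% for such genes.

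Replicate 1 was the highest library for 7 of the 10: Fabp4, Fabp5, Plin2, Acsl1, Acsl4, Pnpla2 and Dgat2. The same library was the highest for 32.4% of the protein-coding genes tested. It was the lowest library for 2 of the 10, Acsl5 and Dgat1, against 37.6% of those protein-coding genes, and Pparg was highest in replicate 2. As log2 differences of replicate 1 from the mean of the other two libraries, Fabp4 was at 1.02, Fabp5 at 0.47, Plin2 at 0.43, Acsl1 at 0.39, Acsl4 at 0.26 and Pnpla2 at 0.16, while Acsl5 was at -0.38 and Dgat1 at -0.41. Under 6 scalings of the libraries, 5 to 8 of the 10 were highest in replicate 1, where 14.3% to 56.8% of the protein-coding genes tested were. The count of 8 on TPM as deposited stands beside that 56.8%, and the count of 5 on the second quantification as deposited beside that 14.3%. On that second scaling Acsl1 and Pnpla2 were highest in replicate 2. Fabp4, Fabp5, Plin2, Acsl4 and Dgat2 were highest in replicate 1 under all 6.

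**Figure D3:**
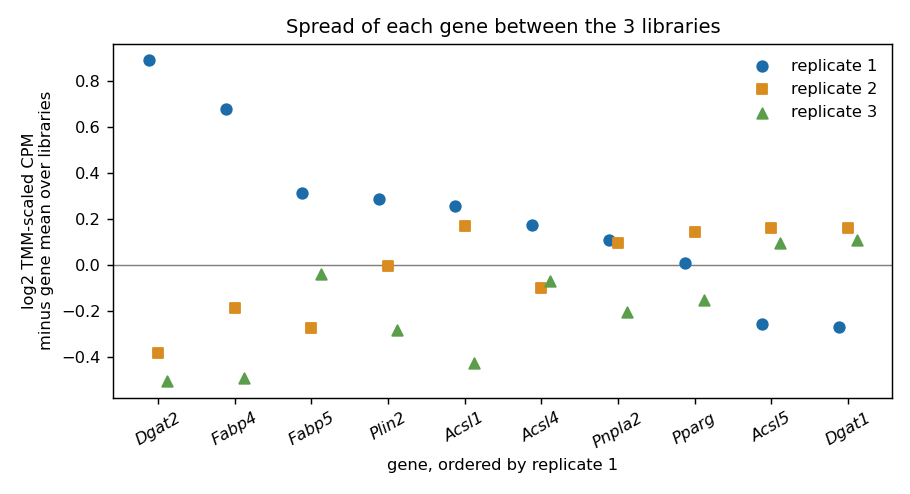
Log2 TMM-scaled CPM of each gene in each library minus the mean of the gene over 3 libraries, ordered by replicate 1. Replicate 1 is the highest point for the 7 genes from Dgat2 to Pnpla2 and the lowest for Acsl5 and Dgat1.

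Markers of other cells were set beside this order, since Fabp4 is also made by endothelial and fat cells. They are given in TPM as deposited, on which 56.8% of the protein-coding genes tested were highest in replicate 1. Of the adipocyte markers, 7 were at 0 in every library, Lipe stood at 5.61, 3.68 and 4.34 TPM, highest in replicate 1 like Fabp4, and Lpl at 73.2, 101 and 70.8 TPM, highest in replicate 2. The 10 endothelial markers summed to 11.1, 7.06 and 4.89 TPM in replicates 1, 2 and 3, the same order as Fabp4. Kdr, a receptor for VEGF, made up most of it at 7.09, 3.24 and 2.29 TPM, followed by Vwf, a clotting factor, at 2.95, 2.92 and 1.62 TPM. Lower endothelial markers ordered the libraries otherwise, with Pecam1 at 0.75, 0.51 and 0.63 TPM and Cdh5 at 0.24, 0.29 and 0.12 TPM. Some macrophage markers had the order of Fabp4 too, with Cd68 at 680, 573 and 503 TPM and Spi1 at 137, 113 and 111 TPM. Adgre1, at 490, 633 and 628 TPM, and other macrophage markers did not.

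The other 8 endothelial markers were under 1 TPM on average, and Tek, Tie1, Cldn5 and Gpihbp1 were at 0 in every library. Fibroblast markers summed to at most 0.51 TPM in a library, neutrophil markers to between 5.91 and 9.66 TPM with S100a9 and S100a8 highest, lymphoid markers to at most 0.12 TPM and erythroid markers to at most 0.16 TPM. The part of the endothelial markers and of Lipe in the Fabp4 order was not tested. In bulk RNA, more cells that express a gene and more RNA per cell cannot be told apart.

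Part of the RNA of some genes was assigned to transcripts that keep an intron, and this share was highest in replicate 3. Of the 8 genes with such an annotated transcript, 6 had a share above 0 in some library, and in 5 of the 6 it was highest in replicate 3, where 79.0% of 5254 protein-coding genes did the same. For Dgat1 the share was 1.48%, 2.61% and 25% in replicates 1, 2 and 3. For Acsl1 it was 1.15%, 0.909% and 4.94%.

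The median over protein-coding genes was 1.21%, 0.994% and 4.74%. The coding transcript Dgat1-201 alone stood at 2.00, 2.24 and 2.10 TPM, so the higher Dgat1 TPM of replicate 3 lay in its other transcripts. On TMM-scaled CPM, Dgat1 stood at 5.38, 7.25 and 6.99, highest in replicate 2. The second quantification gave Dgat1 shares of 1.97%, 4.78% and 29.7%, and there the share was highest in replicate 3 for 7 of 7 genes above 0, where 82.9% of 5392 protein-coding genes did the same. The nuclear noncoding RNA Malat1 stood at 191, 133 and 952 TPM in the same libraries, and its relation to these shares was not tested.

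**Figure D4:**
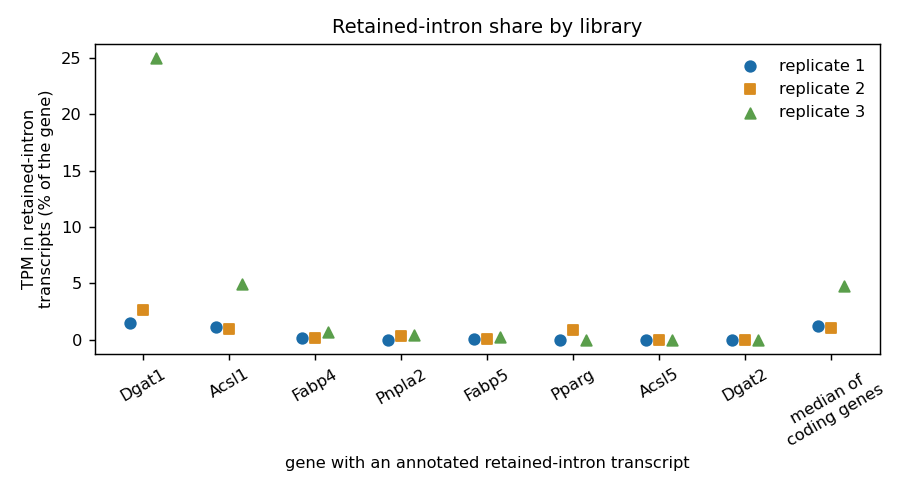
Share of the TPM of each gene held by annotated retained-intron transcripts, in percent, with 1 point per library, for the 8 genes that have one and for the median of protein-coding genes. Replicate 3 is highest for Dgat1 at 25% and for the median at 4.74%.

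The rest of the pathway was read from 106 genes in 9 lists by role, of which 61 reached 1 TPM in every library, 29 reached 10 TPM and 0 reached 100 TPM throughout. Their median was 3.53 TPM. In uptake, 4 of 11 genes reached 1 TPM, led by Lpl, the lipase that frees fatty acids from lipoproteins, at 81.8 ± 17.0 TPM and Cd36, a fatty acid and lipoprotein receptor, at 29.6 ± 5.98 TPM. Another 4 were at 0. Among other carriers 4 of 9 reached 1 TPM, with Dbi, the acyl-CoA-binding protein, at 44.7 ± 1.62 TPM and Fabp3, the heart-type FABP, at 33.4 ± 18.4 TPM, and 3 were at 0.

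Of the other synthetases and thioesterases, 7 of 11 reached 1 TPM, led by the thioesterases Acot9 at 16.3 and Acot13 at 14.2 TPM, and 3 were at 0. In the steps of glycerolipid synthesis before the DGAT enzymes, 7 of 14 reached 1 TPM, led by the acyltransferases Agpat1 at 23.9 ± 1.34 and Agpat3 at 17.4 ± 0.252 TPM, and 2 were at 0. The median of the list was 2.01 TPM, beside 2.41 TPM for Dgat1.

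Among other droplet coat and growth genes 4 of 13 reached 1 TPM. They were Bscl2, the seipin gene of droplet assembly, at 18.1 ± 3.88 TPM, Abhd5, the coactivator of ATGL, at 9.35 ± 0.681 TPM, Plin3 at 7.68 TPM and Hilpda, an inhibitor of ATGL, at 3.73 TPM. Plin1 and Cidec, droplet genes of fat cells, and Fitm1 were at 0, and G0s2, another inhibitor of ATGL, was at 0.0167 TPM. Plin2, at 144 TPM, was thus the main perilipin message.

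In lipolysis 5 of 8 reached 1 TPM. Lipa, the lysosomal acid lipase that degrades lipoprotein lipid, stood at 111 ± 17.1 TPM and Abhd12, a lysophospholipid hydrolase, at 81.6 ± 9.09 TPM, while Ces1d was at 0. Fatty acid oxidation had the fullest list, with 14 of 16 at 1 TPM or more, led by Acadl, a long-chain acyl-CoA dehydrogenase, at 19.1 ± 2.83 TPM and Etfb, an electron carrier, at 17.3 ± 0.326 TPM. Its lowest member was Cpt1c at 0.0167 TPM.

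Fatty acid synthesis and desaturation had 10 of 12 at 1 TPM or more, led by the desaturase Scd2 at 47.4 ± 12.5 TPM and the elongase Elovl1 at 33.4 ± 6.87 TPM, and Acacb was lowest at 0.157 TPM. Of the partners and targets of PPAR receptors 6 of 12 reached 1 TPM, led by the corepressor Ncor1 at 40.7 ± 3.50 TPM. Ppara, Rxrg, Ppargc1a and Pdk4 were at 0. Rxra, the partner with which PPARγ binds DNA, stood at 7.87 ± 1.38 TPM, and Ppard, its relative, at 4.55 ± 0.845 TPM, beside 3.63 TPM for Pparg.

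**Figure D5:**
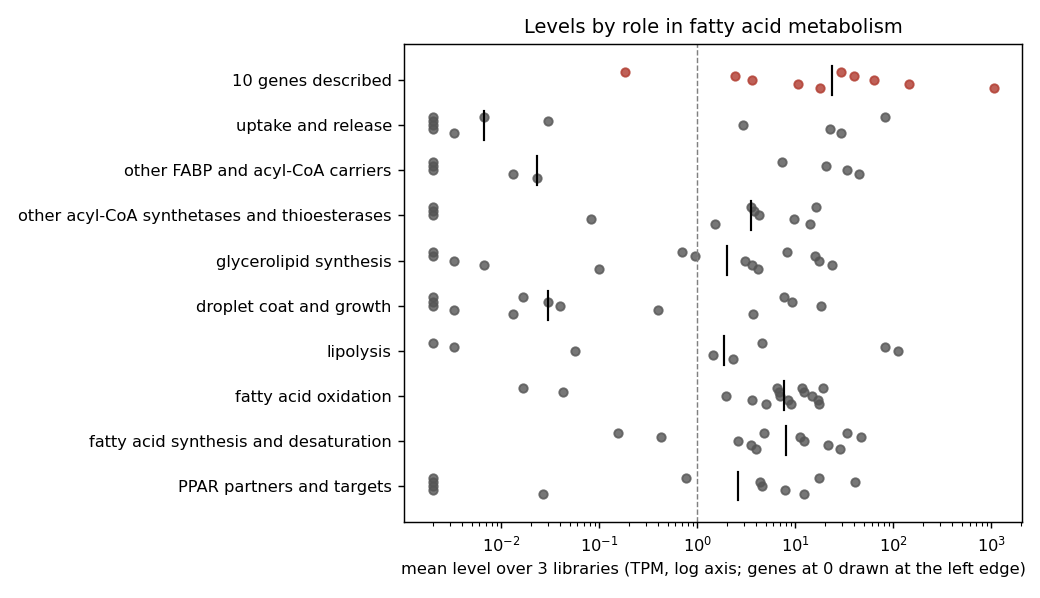
Mean level over 3 libraries in TPM on a log axis for the 10 genes described (top row) and for the 9 lists by role, with 1 point per gene, a black line at each median, a dashed line at 1 TPM, and genes at 0 drawn at the left edge. The median of the 10 genes is 23.7 TPM, and the lists of oxidation and synthesis hold the fewest genes under 1 TPM.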

How the data were processed

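Total RNA of the cytosolic fraction (1 µg, size range 250 to 400 per the labels) was measured in 3 libraries of 1 group. Per the file headers, a table by gene and a first table by transcript, both on mm10 with GENCODE M21, give expected counts and TPM computed by the authors. The second deposited transcript table holds estimated counts and TPM, summed here per gene. Aligner and quantifier were not given in the sources used here. Of 81881 rows, 55536 matched GENCODE M21 genes. The tRNA, spike-in and phiX rows, 0.350%, 0.169% and 0.168% of the expected counts in replicates 1, 2 and 3, were left out of library sizes and tests. The deposited tables also hold interval bounds of TPM, treated as a score since they lie around another estimate than the TPM itself, and these served only for Pparg-201.

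Expected counts were rounded and scaled by TMM (edgeR 4.0.16). Genes entered the chi-square test with 10 counts or more in any library. The test was run on simulated data that held counting error and planted changes only. Other spread between libraries was not simulated. Alternatives were DESeq2 1.42.0 size factors, no filter, the second quantification, TPM taken over coding and long noncoding genes alone, a pseudocount of 1 TPM, adding copies of Fabp5 and leaving out each library. The comparison of scalings and the search for copies by sequence were added after seeing the data. Copies were searched with blastn 2.17.0. Tables and figures were made with Python 3.11.15 (scipy 1.17.1, pandas 2.3.3, numpy 2.4.6, matplotlib 3.10.9), and scaling ran in R 4.3.3. Promoter sequences are from RefSeq (GRCm38.p6), where 6 of the 10 genes matched.

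The genes and lists were chosen with earlier results of these data known. Named are all 10 genes, the 2 highest and the lowest of each role list (the count where several are at 0) and the 2 highest of each marker list. 1 gene that this rule picks is not reported here. Further names, among them Rxra, Ppard, Abhd5, Plin3, Hilpda, G0s2, Malat1, Pecam1, Cdh5, Spi1 and Adgre1, were picked with their values in view. Likeness of pattern to other genes was not scored, since 3 libraries of 1 group give none.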

Additional observations from a re-analysis of the deposited data

How the results depend on the processing

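No log2 ratio within a family changed sign under any alternative run. The leading transcript of Pnpla2 did change, from Pnpla2-203 to Pnpla2-201, in the second quantification, and the difference of replicate 1 from the other two libraries, 0.16 for Pnpla2 and 0.01 for Pparg on the log2 scale, became -0.0079 and -0.056 on the second TPM as deposited. The log2 ratio of Dgat1 to Dgat2 dropped from 3.91 to 1.52 with a pseudocount of 1 TPM, which exceeds the Dgat2 level itself, and that of Plin2 to Pnpla2 moved from 3.72 to 3.41 in the second quantification. The other 30 recomputed ratios stayed within 1 SD. Those that left out 1 library could not do otherwise, since dropping 1 of 3 values cannot move their mean by 1 SD. Levels in TPM shift as a whole with the rows over which TPM is taken. Fabp5 was 1074 TPM as deposited, 3607 when taken over coding and long noncoding genes alone and 485 in the second quantification. In the second quantification 8 of the 10 genes reached 1 TPM in every library, as Dgat1 stood at 0.896 TPM in replicate 1. Of the 106 pathway genes, 54 did so there, against 61 in the first. Of the leading transcript shares of the 10 genes, 5 moved beyond 1 SD in the second quantification. Leaving out 1 library could not move a share that far. The number of genes departing between libraries was 7, 9 and 8 without replicates 1, 2 and 3, where 57.1%, 52.5% and 54% of all genes tested departed. No paired analysis was possible because there is only 1 group. Depth limits Dgat2 most.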

Other observations

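Most genes that make and burn fatty acids were lowest in replicate 1, where Fabp4, Fabp5 and Plin2 were highest. On TMM-scaled CPM, 10 of 12 genes of fatty acid synthesis and desaturation were lowest in replicate 1, where 37.6% of the protein-coding genes tested were, and 11 of 14 tested genes of fatty acid oxidation were too. On TPM put on a common base of coding and long noncoding genes the counts were 11 and 12, where replicate 1 was lowest for 48.3% of the protein-coding genes of at least 1 TPM. The median log2 difference of replicate 1 from the other two libraries was -0.38 for synthesis and -0.17 for oxidation, against 0.32 for the 10 genes described and -0.01 for protein-coding genes of at least 1 TPM. A low replicate 1 was not particular to these 2 lists. That median was -0.31 for the 4 tested genes of uptake and release and -0.24 for the 10 of glycerolipid synthesis. It was 0.16 for other carriers and 0.18 for droplet coat and growth. Of the 10 genes described, Acsl5 and Dgat1 were lowest in replicate 1 too. The members of a list share libraries and are not replicates, so these counts and medians are descriptions. Scd2 stood at 34.2, 59.1 and 48.8 TPM and Fasn, the fatty acid synthase, at 2.28, 4.42 and 3.92 TPM in replicates 1, 2 and 3.

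Fabp3 stood at 54.7, 23.5 and 22.1 TPM in replicates 1, 2 and 3, beside 64.0, 28.9 and 25.2 TPM for Fabp4. Fasn and this comparison were chosen after the values were seen.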
